A study of Arabidopsis thaliana with 4 samples.

Results

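In shoots of the lwd1lwd2 double mutant of Arabidopsis thaliana, 121 genes met a rule for lower signal on both mutant arrays than in wild type. Of these, 51 did not pass a filter on low values that is described further below. The 121 were chosen from 13513 probe sets that report 1 gene each. A gene was a member when the higher mutant value lay at least 0.8 below the lower wild-type value on the log2(signal + 16) scale and the wild-type arrays lay less than 0.5 apart. This distance between the nearest arrays of the genotypes is called the gap below. The rule was met by 126 probe sets, 0.932% of those examined, and 5 of these (AT1G73600, SWEET4, SWEET13, SAG29 and AFR) were set aside by name. SWEET17, also set aside, did not meet it, with a gap of 0.62. The members were chosen on the genotype difference itself, so their differences are described here and carry no test.

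Each genotype had 2 arrays, described in the labels as biological replicates. Wild-type plants and lwd1lwd2 plants, mutant in both LWD1 and LWD2, were grown for 31 days under 12 h of light and 12 h of dark. All above-ground tissue was harvested between 5 and 9 h after lights-on (ZT5 to ZT9). The labels give neither the mutant alleles nor the accession of the wild type, and do not say how many plants were pooled for an array.

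LWD1 and LWD2 are WD-repeat proteins that help to activate genes of the circadian clock around dawn. They are related to TTG1, the WD-repeat protein of the complexes that set the fate of epidermal cells. The clock gives many genes of metabolism, wall growth and stress response a peak at a set time of day. All samples came from 1 harvest window, so a transcript that peaks at another hour and one that is made less at all hours cannot be told apart. Likewise, in whole shoots, fewer cells of a type and less RNA per cell cannot be told apart.

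The median signal of the arrays was 163 and 162 on the wild-type arrays against 181 and 176 on the mutant arrays. LWD1 and LWD2 were not among the probe sets named here, so no direct check of the genotypes was made. None of the 12 leaf mesophyll markers and none of the 7 seed markers chosen was named, so the tissue could not be checked against leaf markers. The 2 named markers of flowers, AT5G07230 and AMS, a regulator of anther development, had a summed signal of 202 and 34.2 on the wild-type arrays against 360 and 52.8 on the mutant arrays. Replicate 1 was the higher array in both genotypes, and the ranges overlapped. The 2 named root markers, PYK10 and EXPA7, summed to 1114 and 1852 on the wild-type arrays against 954 and 1410 on the mutant arrays, which also overlap. FMA, a guard cell regulator and the 1 named marker of 7 for trichomes and guard cells, stood at 307 and 298 against 283 and 369. The part of these cell types in the differences below was not tested.

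The members ranged widely in signal, short of the dimmest probe sets, which the rule cannot pick with its offset of 16. Their mean wild-type signal ran from 18.9 to 17320, with a median of 278 (0.162 to 30660 over all 13513 probe sets), and their mean mutant signal from 0.592 to 6730, with a median of 110. The log2 difference, mutant minus wild type, ran from −2.62 to −0.88 with a median of −1.20, against a median of 0.06 over all 13513 probe sets. It was at least 1 in size for 109 members and at least 2 for 10. The gap was 1 or more for 55 members and 1.5 or more for 12. Together the members held 0.708% and 0.716% of the signal of the wild-type arrays, and 0.303% and 0.275% of that of the mutant arrays. Turned round, the same rule was met by 193 probe sets that were higher in the mutant, 1.43% of those examined.

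The gene table gave 17 of the 121 members a symbol, and 11.5% of all 13513 probe sets. The other 104 are known here by locus tag only, and no function is given for them. Of the 17, 16 have a role that can be stated, and they fall into 4 groups: carbon and nitrogen metabolism, cell wall and lignin, development and signalling, and a mixed group of vacuole, lectin and osmotic stress genes. The groups were made after the members were known.

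**Figure D1:**
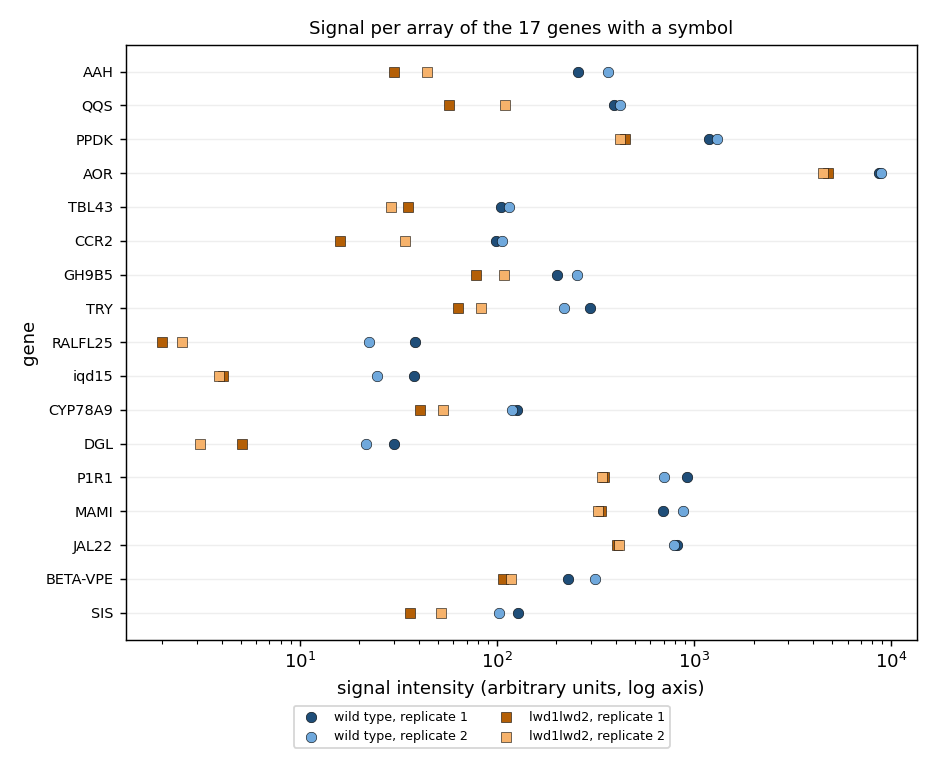
Signal per array (arbitrary units, log axis) of the 17 members with a symbol, with circles for wild type and squares for lwd1lwd2. In every gene both squares lie to the left of both circles, which the rule requires. AOR was the brightest, with 4480 as its lowest array, while the highest array of RALFL25 was at 38.2.

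Carbon and nitrogen metabolism held 4 members, with log2 differences from −2.62 to −0.92. All 4 passed a filter on low values (described below), which uses the mean of all 4 arrays. AAH passed it through its wild-type arrays, as both its mutant signals lay under the limit of about 91.5. AAH (AT4G20070) encodes allantoate amidohydrolase, which releases ammonium from allantoate when purine rings are broken down. Its signal was 258 and 365 on the wild-type arrays against 29.95 and 44.0 on the mutant arrays, a mean of 311 ± 75.6 against 37.0 ± 9.95 (SD, n = 2). AAH had the largest gap of all members, 2.19, and the largest difference, −2.62. Of 14 genes listed for purine breakdown, 3 were named, AAH among them. Neither of the other named genes was called. ALN, allantoinase, acts just before AAH and was 144 and 218 on the wild-type arrays against 264 and 268 on the mutant arrays, a log2 difference of 0.54 ± 0.25 (SE, adjusted p = 0.259, limma). UGLYAH, ureidoglycolate amidohydrolase, acts downstream and stood at 185 and 137 against 97.8 and 35.5, a difference of −1.20 ± 0.38 (SE, adjusted p = 0.103, limma). The ranges of the genotypes did not overlap for either gene, with ALN higher and UGLYAH lower on the mutant arrays.

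QQS (AT3G30720) is a gene found only in Arabidopsis thaliana that affects how carbon is divided between starch and protein. It gave 392 and 420 on the wild-type arrays against 56.8 and 110 on the mutant arrays. The wild-type arrays nearly coincided, while the mutant arrays were 0.79 apart on the log2 scale. Of the starch breakdown genes, 2 of 15 were named and tested. PWD, phosphoglucan water dikinase, which phosphorylates starch granules so that they can be degraded, rose from 1524 and 1619 to 3425 and 4229, a log2 difference of 1.27 ± 0.18 (SE, adjusted p = 0.0025, limma). DPE1, a plastid glucanotransferase that acts on maltotriose, stood at 897 and 1083 against 1122 and 1257 and was not called (0.26 ± 0.19, SE, adjusted p = 0.479, limma). QQS was thus lower on both mutant arrays and PWD higher. The starch list was chosen with earlier results of these data known, so the call of PWD is no independent evidence. For scale, limma called 2.84% of the 13647 tested probe sets lower and 2.73% higher, which is 388 against 372. After centring each array on its median, these counts were 572 and 257.

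PPDK (AT4G15530), pyruvate orthophosphate dikinase, interconverts pyruvate and phosphoenolpyruvate. It was 1183 and 1304 on the wild-type arrays against 446 and 422 on the mutant arrays, a ratio of means of 2.86. Replicates of both genotypes were close, at most 0.14 apart on the log2 scale. AOR (AT1G23740), a chloroplast oxidoreductase that removes reactive carbonyls formed from lipids, was among the brightest members. Its signal was 8667 and 8817 on the wild-type arrays against 4766 and 4480 on the mutant arrays, a ratio of means of 1.89, near the lowest of any member (1.87).

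The cell wall and lignin group held 3 members with log2 differences from −1.56 to −1.16, of which 1 passed the filter. TBL43, of a family whose studied members add acetyl groups to wall polysaccharides, was 105 and 115 on the wild-type arrays against 35.3 and 29.0 on the mutant arrays. CCR2 (AT1G80820) is here cinnamoyl-CoA reductase, an enzyme of the route to lignin, and not the clock-regulated RNA-binding protein that shares the abbreviation. It stood at 98.6 and 105 against 15.98 and 34.2. GH9B5, of the endoglucanase family, stood at 202 and 253 against 78.2 and 108. The brightest array of this group was at 253. With an offset of 64 in place of 16, none of the 3 met the rule, and the log2 differences of TBL43, CCR2 and GH9B5 were −0.86, −0.90 and −0.89. Of all 17 members with a symbol, 8 met the rule with that offset, among them all 4 of carbon and nitrogen metabolism and 1 of 5 of development and signalling.

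Development and signalling held 5 members, of which TRY passed the filter. It did so through its wild-type arrays, as both its mutant signals lay under the limit. TRY (AT5G53200), TRIPTYCHON, is a small MYB protein that moves to neighbouring cells and stops them from becoming trichomes. Its signal was 295 and 217 on the wild-type arrays against 63.5 and 82.8 on the mutant arrays, a log2 difference of −1.60. CYP78A9, a cytochrome P450 that promotes fruit and seed size, was 126 and 120 on the wild-type arrays against 40.6 and 53.2 on the mutant arrays. Wild-type replicate 1 was the higher array for both, as it was for RALFL25, iqd15 and DGL.

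RALFL25, of a family of small secreted signalling peptides, stood at 38.2 and 22.4 against 1.99 and 2.52. The IQ-domain gene iqd15, of a family of calmodulin-binding proteins, stood at 37.9 and 24.5 against 4.06 and 3.89. DGL, DONGLE, a lipase linked to jasmonate synthesis, stood at 30.1 and 21.7 against 5.11 and 3.11. These signals are dim in both genotypes, and detection calls were not used here.

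The fourth group held a vacuolar protease, a lectin and genes named for osmotic stress. BETA-VPE (AT1G62710), a vacuolar processing enzyme that matures seed storage proteins, was 228 and 312 on the wild-type arrays against 107 and 117 on the mutant arrays. Its relative GAMMA-VPE, the vegetative form, stood at 4849 and 4932 against 4008 and 4139 and was not called (log2 difference −0.26 ± 0.16, SE, adjusted p = 0.407, limma). ALPHA-VPE was too dim to be tested, at 19.8 and 34.7 against 6.49 and 18.7.

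JAL22, of the jacalin-related lectins, stood at 817 and 787 against 407 and 417. MAMI, named as membrane-associated and mannitol-induced, stood at 692 and 878 against 336 and 324. SIS, Salt Induced Serine rich, stood at 127 and 103 against 36.3 and 51.8 and was 1 of the 3 members nearest to the limit of the rule. P1R1, the 17th gene with a symbol, stood at 918 and 702 against 349 and 341, and no role is given for it here. JAL22, MAMI and P1R1 had mutant arrays at most 0.05 apart on the log2 scale.

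**Figure D2:**
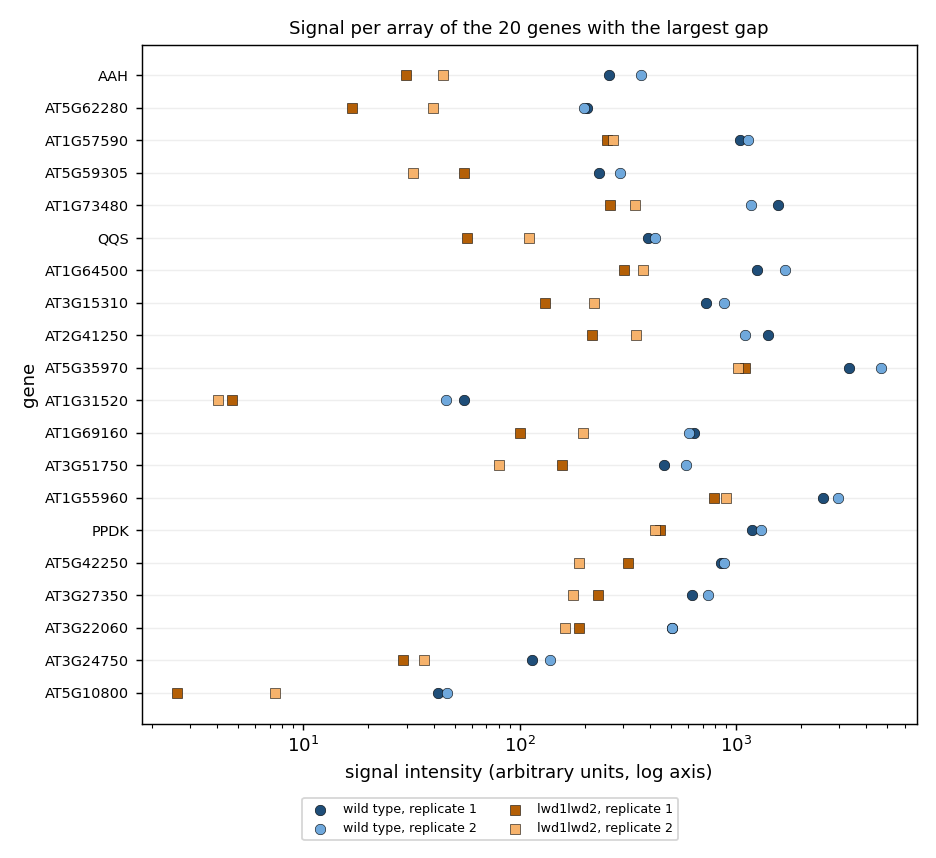
Signal per array (arbitrary units, log axis) of the 20 members with the largest gap between genotypes, from AAH at the top (gap 2.19) to AT5G10800 at the bottom (gap 1.31). Circles are wild-type arrays and squares are lwd1lwd2 arrays. Wild-type signals run from 41.8 for AT5G10800 to 4685 for AT5G35970.

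Of the 20 members with the largest gap, 17 are known by locus tag only. AT5G62280 was second after AAH, at 205 and 198 on the wild-type arrays against 16.7 and 39.6 on the mutant arrays. AT1G57590 stood at 1040 and 1134 against 254 and 269. AT5G59305 stood at 233 and 290 against 55.3 and 32.2. In AT5G62280 the wild-type arrays lay 0.04 apart on the log2 scale, and in AT1G57590 both pairs lay at most 0.12 apart.

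AT1G73480 followed with 1553 and 1166 against 261 and 342, AT1G64500 with 1243 and 1677 against 304 and 373, and AT2G41250 with 1402 and 1093 against 215 and 343. The ratio of mean signals in these 3 was 4.51, 4.31 and 4.48. AT5G35970, the brightest of the 20, was 3329 and 4685 on the wild-type arrays against 1097 and 1016 on the mutant arrays. AT1G55960 stood at 2531 and 2963 against 788 and 900. In both, the mutant arrays were closer together than the wild-type arrays.

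AT3G15310 is annotated as a pseudogene, and was 724 and 881 on the wild-type arrays against 130.45 and 220.06 on the mutant arrays. It was the 1 pseudogene among the members that passed the filter, and 15 of 7369 probe sets (0.204%) that passed report one. AT1G69160 stood at 638 and 607 against 100.03 and 197, and AT3G51750 at 464 and 588 against 156 and 80.5. The mutant arrays of these 2 genes lay 0.88 and 0.83 apart on the log2 scale, in opposite directions. AT1G69160 was lower in mutant replicate 1 and AT3G51750 in mutant replicate 2.

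AT5G42250 stood at 852 and 878 against 317 and 189, AT3G27350 at 623 and 744 against 231 and 176, and AT3G22060 at 506 and 505 against 188 and 161. All 3 were lower in mutant replicate 2 than in replicate 1. AT3G24750, AT1G31520 and AT5G10800 were the dimmest of the 20. AT3G24750 stood at 114 and 138 against 28.8 and 35.9, AT1G31520 at 55.1 and 45.8 against 4.66 and 4.05, and AT5G10800 at 41.8 and 46.1 against 2.61 and 7.39. With AT5G62280, these were the 4 of the 20 that did not pass the filter.

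Among the members, 31 had a mean wild-type signal above 1000, and 2 of these (AOR and PPDK) have a symbol. In these 31 the wild-type mean was 1.87 to 4.51 times the mutant mean, with a median of 2.46. The genes named in this paragraph were chosen after their values were seen. AT2G41090 was the brightest member, at 19414 and 15226 on the wild-type arrays against 8318 and 5141 on the mutant arrays. Its arrays were the widest apart of these 31 in the mutant, at 0.69 on the log2 scale. AT3G56290 stood at 5511 and 7093 against 2205 and 2716, and AT5G03350 at 6461 and 5194 against 2296 and 1875. AT5G57345 stood at 4373 and 4179 against 2223 and 2341, AT4G11570 at 3561 and 4171 against 1653 and 1847, and AT2G04039 at 3634 and 3756 against 1640 and 1233. The ratio of means was no more than 2.79 in any of these 6.

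The filter on low values removed the dimmest 40% of probe sets by their mean of log2(signal + 16) over all 4 arrays, a limit that equals a signal of about 91.5 on that scale. It was passed by 70 of the 121 members (57.9%) and by 54.5% of all 13513 probe sets. A member could pass through its wild-type arrays alone, as AAH and TRY did, for example. The rule was met by 1.02% of the probe sets that passed and 0.830% of those that did not, the genes set aside included. The 70 had a median wild-type signal of 888 and a median mutant signal of 338. The 51 others had medians of 38.4 and 6.50, and in 36 of them both mutant signals lay under the offset of 16. On this scale a gene whose mutant signal were 0 could differ by no more than its wild-type level allows, so the differences of dim members were bounded by the offset. The median difference was −1.19 for the dim and −1.23 for the bright members, with the rule's lower limit common to both.

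**Figure D3:**
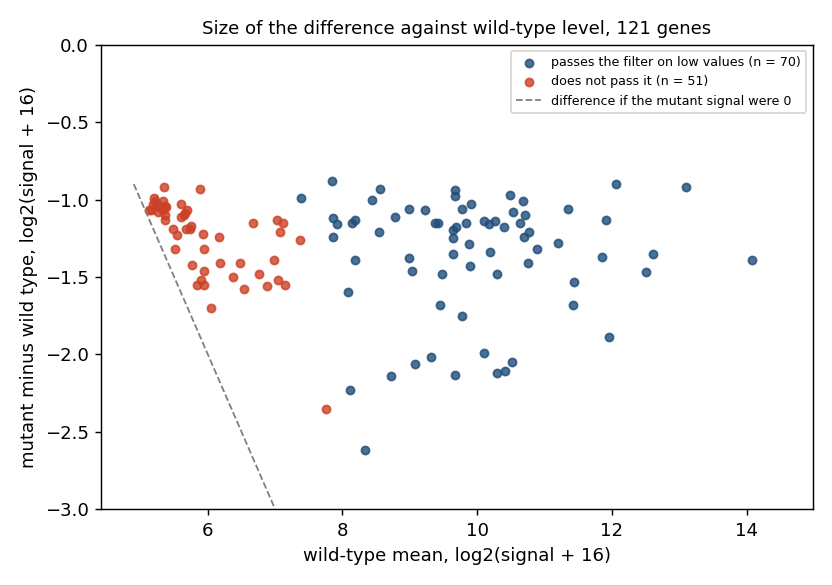
Log2 difference, mutant minus wild type, against the wild-type mean of log2(signal + 16) for the 121 members. Blue points (n = 70) pass the filter on low values and red points (n = 51) do not, and the dashed line marks the difference a gene would have if its mutant signal were 0. Many red points lie close to that line, and AAH is the lowest point at −2.62.

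Of the 121 members, 109 are annotated as protein-coding, 10 as pseudogenes, and 2 had no match in the gene table. Pseudogenes made up 8.26% of the members and 7.32% of all 13513 probe sets. Of the 10, 9 were among the 51 dim members. Their wild-type signals were low, for example 32.4 and 44.9 for AT1G47520 and 52.0 and 39.8 for AT2G14595. The mutant signals were 4.39 and 4.29 for the former and 7.16 and 3.12 for the latter.

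The rule set no limit on the distance between the mutant arrays. It was under 0.5 on the log2 scale for 104 members (86.0%), against 72.6% of all 13513 probe sets. Among members that passed the filter the share was 85.7%, against 86.1% of all probe sets that passed. The 17 members at 0.5 or more included CCR2 and 8 of the 20 with the largest gap, QQS among them. The widest were AT2G27180, at 29.1 and 5.36, and AT5G46115, at 25.7 and 4.60, both dim. Mutant replicate 1 was the lower array for 64 members and mutant replicate 2 for 57.

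In wild type the dim and the bright members leaned opposite ways. Replicate 1 was the lower wild-type array for 45 of the 70 members that passed the filter, and replicate 2 for 37 of the 51 that did not. Over all probe sets the lean went the same way but was weaker. Among the 7369 that passed it was nearly even, with replicate 1 the lower for 3784 and replicate 2 for 3585. Among the 6144 that did not pass, replicate 2 was the lower for 3450.

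**Figure D4:**
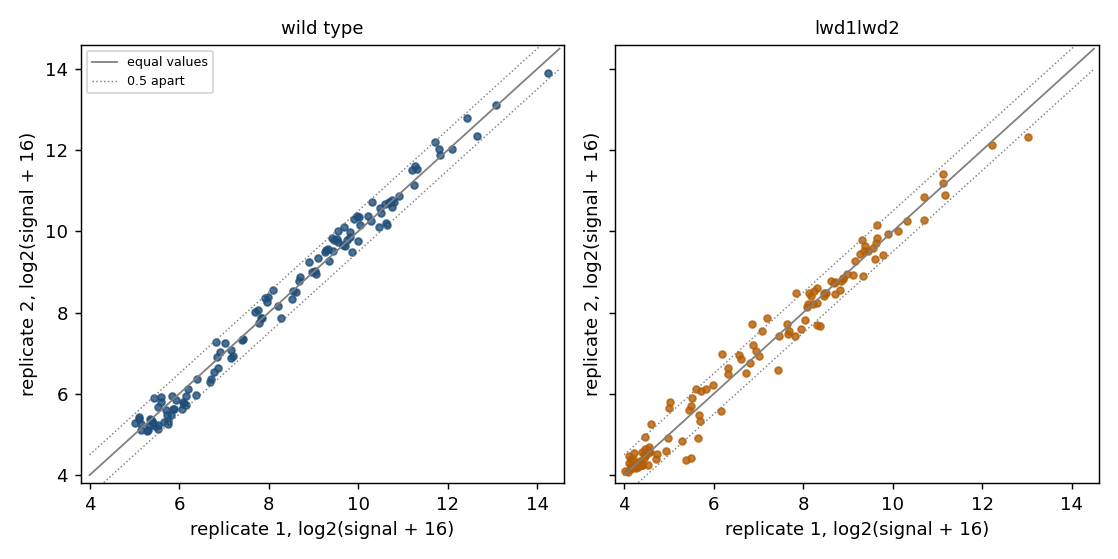
Replicate 1 against replicate 2 on the log2(signal + 16) scale for the 121 members, in wild type (left) and lwd1lwd2 (right). The solid line marks equal values and the dotted lines a distance of 0.5. All wild-type points lie within 0.5, as the rule requires, and 17 of the mutant points lie at or beyond it.

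The members lay on all 5 nuclear chromosomes. Chromosome 1 held 35, chromosome 2 held 13, chromosome 3 held 30, chromosome 4 held 15 and chromosome 5 held 28. As a share of the probe sets of each chromosome this was 1.01%, 0.589%, 1.09%, 0.764% and 0.928%. Only 1 pair of members lay within 9 genes of each other in the TAIR10.1 gene order, AT5G47950 and AT5G47980, with 2 genes between them. Both were dim, at 32.6 and 39.2 in wild type against 7.60 and 9.93 for the former, and 36.0 and 32.6 against 6.10 and 9.02 for the latter. The member nearest to LWD1 in gene order was AT1G09740, with 435 genes between, and the nearest to LWD2 was AT3G27350, with 110 between.

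Genes just inside and just outside the limit differed little. Just inside were AT3G18280 with a gap of 0.802, and AT1G09390 and SIS, both with 0.805. AT3G18280 stood at 1451 and 1384 against 654 and 787, and AT1G09390 at 374 and 345 against 191 and 170. Just outside were AT1G57780 (0.799), AT1G66330 (0.798) and SFP2 (0.795). AT1G66330 stood at 3309 and 3642 against 1551 and 1896, and SFP2 at 326 and 336 against 181 and 159. AT1G57780 was dim, at 27.9 and 25.2 against 4.14 and 7.68.

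A further 28 probe sets, of 27 genes, had a gap of 0.8 or more but wild-type arrays 0.5 or more apart. They included genes with gaps larger than that of AAH. AT1G22480 was 206 and 649 on the wild-type arrays against 16.5 and 13.5 on the mutant arrays, and its wild-type arrays were 1.58 apart on the log2 scale. AT1G62510 stood at 7776 and 11496 against 675 and 1228, and AT2G15020 at 823 and 1733 against 90.2 and 131. The rule for steadiness thus kept out some of the largest differences.

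The other genes of the 8 gene lists were tested with limma over all probe sets past the filter. The lists held 136 entries, of which 35 probe sets were named and 21 that are not members were tested. Of these 21, 3 were called lower and 1 higher. The lists were chosen with earlier results of these data known. The 3 called lower also had a gap of 0.8 or more, and the 1 called higher met the rule turned round. These calls are therefore no independent evidence. The median log2 difference over all tested probe sets was 0.05. Of the list of proteases and other senescence genes, 3 non-members were tested, with a median of −0.26, and AT2G27420 was called lower (−2.56 ± 0.30, SE, adjusted p = 8.2e-04). Its wild-type arrays stood at 696 and 1131 and its mutant arrays at 102 and 182. AT1G62510 was called lower (−3.35 ± 0.28, SE, adjusted p = 1.4e-04, limma) among 3 tested of the lipid-transfer-like list, whose median was −0.60. The other gene called lower, AT1G22480 of the cupredoxin list, passed the filter through its wild-type arrays alone, so its test is not given.

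PWD was the 1 gene called higher, of the 2 starch breakdown genes, whose median was 0.77. The 2 tested genes of purine breakdown other than AAH had a median of −0.33. No gene was called in the lists of dark- and sugar-starvation genes (2 tested, median 0.59), flavonoid synthesis (3 tested, median 0.03) or aliphatic glucosinolate synthesis (2 tested, median −0.09). In these 3 lists, AKINBETA1, a subunit of the SnRK1 energy-sensing kinase, stood at 195 and 240 against 286 and 364. UGT78D2, a flavonoid glucosyltransferase, stood at 1232 and 1195 against 1241 and 1258, and BCAT4, of methionine chain elongation, at 8271 and 11514 against 8158 and 9058. The ranges of AKINBETA1 did not overlap (log2 difference 0.54 ± 0.23, SE, adjusted p = 0.217, limma). AT3G15450, the other tested starvation gene, stood at 505 and 331 against 670 and 616, also without overlap (0.63 ± 0.23, SE, adjusted p = 0.149, limma). The ranges of UGT78D2 did not overlap but lay close together, and those of BCAT4 overlapped.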

How the data were processed

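RNA of 4 samples was measured on Affymetrix GeneChip arrays. Per the labels' protocols, cDNA made from 10 µg of total RNA was transcribed in vitro with a biotin label. The authors deposited 22810 linear intensity values per array, 1 for a probe set; the software used was not given in the sources used here. With 2% of values trimmed at each end, the mean was 500.05 on all 4 arrays, so the arrays had been scaled to a common mean, which cannot show a change in total mRNA. The number of arrays limits the precision.

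Values were analysed as log2(intensity + 16), which understates the change of dim genes, and the 64 control probe sets were left out. Names came from the platform annotation and were updated with the TAIR10.1 gene list: 13513 probe sets had 1 gene (13436 matched), 503 had several and 8730 were not listed. The member rule was met by 248 probe sets in all, of which 5 have several genes and 117 are unlisted and not described. Close paralogs can add to a probe set's signal.

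The members and gene lists were chosen with earlier results of these data known. Named are the 20 members with the largest gap, up to 4 per functional group, the 3 genes on each side of the limit, and list genes called by limma. Other named genes were chosen after their values were seen. List genes were tested in limma (version 3.58.1, R 4.3.3; genotype only, intensity trend, two-sided, Benjamini-Hochberg adjusted p below 0.05 over 13647 probe sets past the filter, 2 residual degrees of freedom). On simulated data with 13647 probe sets it recovered 37% of the probe sets with a log2 change of 1 and 97% of those with a change of 2, with 10 false calls. The simulated noise was normal and independent between arrays, with variances drawn from limma's own fit to these data. Real arrays may depart from this, so the rates hold for the simulation only. Alternatives were other offsets, gaps and scalings, no filter, a robust prior, a replicate block and leaving out each array. Promoter sequences were not analysed here. Figures were drawn with matplotlib 3.10.9.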

Additional observations from a re-analysis of the deposited data

How the results depend on the processing

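The number of genes meeting the rule was 121. It was 188 with an offset of 1 and 65 with an offset of 64, sharing 111 and 62 with the members. A larger offset draws low signals together, and 49 of the 59 members lost with 64 had not passed the filter on low values. A gap of 1.0 or more left 55 genes. With no limit on the wild-type arrays 149 met the rule, after quantile normalization 162 and after median centring 181, and all 3 counts hold at least 115 of the 121. Under both other offsets and both scalings 59 members met the rule, 57 of which pass the filter. With 1 array left out, 308 to 463 genes met it, because fewer arrays had to separate, and without a wild-type array the limit on wild-type distance could not be applied; all 121 members are then kept by construction. The highest count came without wild-type replicate 2, and without wild-type replicate 1 it was 375. The log2 differences of all 121 members stayed below 0 under each offset, scaling and left-out array, as groups that do not overlap nearly require. For the 35 members named by the stated rule, 44 of 280 values moved by more than the replicate SD. All 44 came with another offset or scaling. The values with 1 array left out could not move that far, as leaving out 1 of 2 arrays shifts a mean by less than their SD. The range was −3.04 to −1.88 for AAH, −2.54 to −1.70 for QQS and −3.22 to −0.50 for the dim RALFL25.

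Limma called 388 probe sets lower and 372 higher. Without the filter these were 144 and 114, and the cause was not tested. With 1 array left out they were 271 to 488 and 290 to 607, both highest when wild-type replicate 1 was left out. The deviations of arrays with the same replicate number correlated at 0.0935 across tested probe sets, and the labels do not say that the numbers pair the samples. With a replicate block the calls were 352 lower and 324 higher. PWD, AT1G62510 and AT2G27420 kept their call in every alternative that tested them. Their lists were chosen with earlier results known, and their arrays did not overlap between genotypes. Their kept calls are therefore no independent evidence.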
